A study of Mus musculus with 3 samples.

Results

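RNA levels of 10 genes that handle heme and iron were followed through 3 libraries made from RAW264.7, a macrophage line grown from a mouse tumour that Abelson virus induced. The genes were fixed by symbol as Hmox1, Fth1, Ftl1, Slc40a1, Tfrc, Slc11a1, Slc11a2, Ireb2, Aco1 and Slc25a37, and all 10 were found among the 46078 genes of the deposited table. The 3 conditions were 0.5 mM hydroxyurea (HU) together with gold nanocages, 0.5 mM HU alone, and untreated control cells, with RNA taken after 12 h and 1 library per condition. The nanocage library is named GNC in its title and its table column, and that it received HU as well rests on its treatment label alone. The dose of the nanocages is not given in the sources used here, and no library labelled as nanocages without HU was analysed here. The line derives from BALB/c mice, whose Slc11a1 allele is known to encode a non-functional transporter; read counts do not show the allele.

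Macrophages take up iron as transferrin or from engulfed red cells, store it in ferritin, and release it through ferroportin. Free heme is opened by heme oxygenase, which sets its iron free. Cellular iron is sensed by the iron regulatory proteins IRP1 and IRP2, which bind a hairpin in messenger RNAs, the iron-responsive element. In a 5′ untranslated region (UTR) the bound hairpin blocks translation, and in the 3′ UTR of the transferrin receptor it protects the transcript from decay. HU is known for its action on ribonucleotide reductase, an enzyme with an iron centre.

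The hairpin letters show which of the 10 genes hold this form of the hairpin in an annotated UTR, and they are printed here as description. The RNA levels below do not show binding by the iron regulatory proteins or translation. The search used the 17 letters CNNNNNCAGTGNNNNNN, in which the 5 bases after the first C can pair with the last 5 bases, G with U included. It was run on the sense strand of protein-coding GENCODE M21 transcripts (build mm10). Capitals mark the bulged C and the 6 bases of the loop.
Fth1, 5′ UTR, chr19:9982732-9982761, plus strand: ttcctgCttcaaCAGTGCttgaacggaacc
Ftl1, 5′ UTR, chr7:45459778-45459807, minus strand: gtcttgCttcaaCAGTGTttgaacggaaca
Slc40a1, 5′ UTR, chr1:45925464-45925493, minus strand: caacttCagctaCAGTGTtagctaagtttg
Tfrc, 3′ UTR, chr16:32631219-32631248, plus strand: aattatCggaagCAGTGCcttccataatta
Tfrc, 3′ UTR, chr16:32631598-32631627, plus strand: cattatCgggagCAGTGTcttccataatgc
Tfrc, 3′ UTR, chr16:32631663-32631692, plus strand: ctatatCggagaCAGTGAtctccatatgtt
Tfrc, 3′ UTR, chr16:32631710-32631739, plus strand: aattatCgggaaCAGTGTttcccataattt

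Both ferritin windows shared 26 of 30 bases, and Fth1 shared 13 of 30 with Slc40a1. The 4 Tfrc windows shared 18 to 25 of 30 bases with each other. The letters were held by 5′ UTRs of 31 of 21866 protein-coding genes (0.142%) and by 3′ UTRs of 129 (0.590%). In the other 6 genes, Slc11a2 among them, these letters were not found in an annotated UTR. This says nothing of other forms of the hairpin or of control by the iron regulatory proteins.

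Library sums were 18644333 counts in HU plus gold nanocages, 20057329 in HU and 14990564 in control. Levels are given in FPKM, the deposited reads scaled to exon length and library sum, and folds are ratios of CPM, counts scaled to the library sum. With 1 library per condition no difference has a replicate check. The 95% intervals are exact Clopper-Pearson intervals from the reads and cover counting error only, and an interval that excludes 1 puts a gene above or below counting error. All 6 macrophage markers looked up were present at a mean of at least 1 FPKM, with summed levels of 2632, 2761 and 2882 FPKM in HU plus gold nanocages, HU and control. Of 8 markers of the erythroid lineage, which makes most of the body's heme, 5 had no read, among them the globin genes, and none averaged 1 FPKM.

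The order of levels ran from the ferritin genes down to Slc40a1, and the places differed between libraries for Hmox1 and Tfrc alone (plot of levels by gene). Hmox1 stood above Tfrc in HU plus gold nanocages and below it in HU and control. No spread over replicate libraries can be given for neighbours in this order such as Ireb2 and Slc11a1. A mean of at least 1 FPKM was reached by 9 genes and not by Slc40a1. Levels of different genes depend on the exonic size used. By the exonic size in GENCODE M21, an alternative chosen after seeing the data, Ftl1 stood above Fth1 and Slc11a1 above Ireb2 in each library, and Hmox1 stood above Tfrc in HU too. By the length of the principal transcript, also chosen after seeing the data, Slc11a1, Slc11a2 and Ireb2 stood in places 5, 6 and 7 of 10 in each library, and the other genes kept their places.

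**Figure D1:**
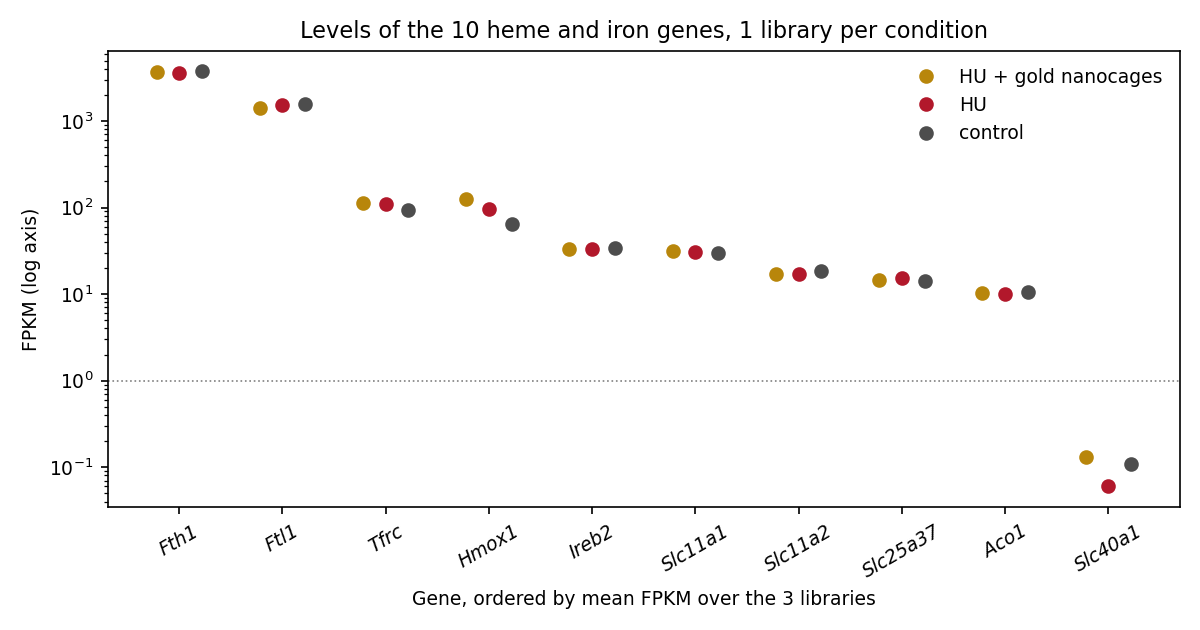
FPKM (log axis) of each gene in the HU plus gold nanocages, HU and control libraries, 1 point per library, with a dotted line at 1 FPKM. By the deposited exonic sizes Fth1 and Ftl1 hold the top places in all 3 libraries, and Hmox1 shows the widest spread of the genes above the line, with 127, 96.8 and 65.0 FPKM in HU plus gold nanocages, HU and control.

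Ferritin stores iron in a shell of heavy chains, which oxidise it, and light chains, which help its core to form. Fth1, the heavy chain gene, had 3658 FPKM in HU plus gold nanocages, 3601 in HU and 3734 in control, ranks 6, 5 and 5 among all genes by the deposited exonic size. Ftl1, the light chain gene, had 1412, 1522 and 1557 FPKM in the same order. The 3 libraries were nearly level for Fth1, whereas Ftl1 was lowest in the nanocage library. In bulk RNA a lower level per cell and fewer cells that make the transcript cannot be told apart.

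Fth1 was 1.04-fold lower in HU than in control (95% counting interval 1.02 to 1.05) and 1.02-fold higher with nanocages than in HU alone (1.00 to 1.03). Ftl1 was 1.02-fold lower in HU than in control (1.01 to 1.04) and 1.08-fold lower with nanocages than in HU (1.06 to 1.09). These ratios exceed counting error because each rests on at least 31271 reads per library. Their size lies between the 25th and 75th percentiles of all genes except for Ftl1 with nanocages, at percentile 15.2 of the contrast against HU and 24.0 of that against control.

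The level of Fth1 relative to Ftl1, per length, was 2.59 in HU plus gold nanocages (2.56 to 2.63), 2.37 in HU (2.34 to 2.40) and 2.40 in control (2.36 to 2.43). Which gene stands higher depends on the size used for Fth1, deposited as 866 bases and 3469 bases in GENCODE M21. With the M21 size the ratio was 0.647, 0.591 and 0.599 in the same order, and by the length of the principal transcripts it was 1.74, 1.59 and 1.62. The nanocage library had the highest of the 3 ratios. A change of size scales all 3 libraries alike, so it cannot change their order and is no check of it. Together both genes took 0.506% of all counts in HU plus gold nanocages (Wilson 95% interval 0.503 to 0.509%), 0.516% in HU (0.513 to 0.519%) and 0.532% in control (0.528 to 0.536%). Near copies found by their symbol took few reads, and copies under other symbols were not searched for. Ftl2 had 4, 4 and 6 reads, the pseudogene Fth-ps2 had 2, 2 and 0, and Fthl17 had none in any library. How reads shared by such copies were counted is not stated. Ftl1 also overlaps the unconfirmed gene Gm10252 on the other strand by 355 exonic bases, and without a known strand setting reads of the pair cannot be told apart. Gm10252 has no counts in the deposited data. On its own strand Ftl1 shares 109 exonic bases with the microRNA gene Gm22133, which had 0 reads in each library.

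Tfrc, the transferrin receptor that brings iron into cells and carries the 3′ UTR hairpins above, had 114 FPKM in HU plus gold nanocages, 109 in HU and 93.1 in control. Both HU libraries were above the control library. The HU ratio to control was 1.17-fold (1.14 to 1.20), at percentile 84.9 of 10842 genes. With nanocages the gene was 1.05-fold higher than in HU (1.02 to 1.07) and 1.23-fold higher than in control (1.19 to 1.26). Relative to Fth1, its level per length was 0.0312 in HU plus gold nanocages (0.0306 to 0.0318) and 0.0302 in HU (0.0297 to 0.0308). In control it was 0.0249 (0.0244 to 0.0255). With the M21 size of Fth1 these ratios were 0.125, 0.121 and 0.0998.

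The 2 Slc11 genes encode proton-coupled iron carriers, NRAMP1 of the macrophage phagosome (Slc11a1) and DMT1, which moves iron out of endosomes (Slc11a2). Slc11a1 had 31.8, 30.9 and 30.1 FPKM in HU plus gold nanocages, HU and control, and every contrast was within counting error. Slc11a2 had 17.2, 17.0 and 18.3 FPKM in the same order. It was 1.07-fold lower in HU than in control (1.01 to 1.15), a call that a 99% counting interval ended, and within counting error with nanocages against HU (1.01-fold, 0.950 to 1.07). Slc11a2 shares 402 exonic bases with Gm5475 on the other strand, which had 0, 4 and 0 reads. The level of Slc11a1 relative to Slc11a2, per length, was 1.85 in HU plus gold nanocages (1.74 to 1.96), 1.82 in HU (1.71 to 1.93) and 1.65 in control (1.54 to 1.76). By the length of the principal transcripts this ratio was 1.41, 1.38 and 1.26 in the same order.

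Slc40a1 encodes ferroportin, the iron exporter of macrophages. It had 21 reads in HU plus gold nanocages, 11 in HU and 15 in control, or 0.13, 0.06 and 0.11 FPKM. These counts are above the upper limit of 3 that a gene without reads allows, yet too few to order the libraries. The ratios were 2.05 (0.947 to 4.72) with nanocages against HU and 0.548 (0.228 to 1.28) for HU against control. The other export genes looked up were as low. Cp, the ferroxidase ceruloplasmin, had 10, 19 and 16 reads, Hamp, which encodes the hormone hepcidin, had 0, 0 and 1, and Heph and Hephl1 had none.

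Aco1 encodes IRP1, which doubles as cytosolic aconitase when it holds an iron-sulfur cluster, and Ireb2 encodes IRP2, which is degraded when iron is plentiful. Ireb2 had 33.2, 33.2 and 33.7 FPKM in HU plus gold nanocages, HU and control, and Aco1 had 10.2, 10.0 and 10.7 FPKM. Both were within counting error in all 3 contrasts, with Ireb2 at 0.985-fold in HU against control (0.939 to 1.03) and 0.997-fold with nanocages against HU (0.953 to 1.04). Aco1 was at 0.941-fold (0.852 to 1.04) and 1.02-fold (0.925 to 1.12). The level of Ireb2 relative to Aco1, per length, was 3.25, 3.31 and 3.16 in the same order, with overlapping intervals, and 1.99, 2.03 and 1.94 with the M21 size of Ireb2.

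Slc25a37 encodes mitoferrin 1, an iron importer of mitochondria. It had 14.7 FPKM in HU plus gold nanocages, 15.3 in HU and 14.3 in control, and was within counting error in every contrast. The ratio of HU to control was 1.07 (0.999 to 1.15), and TMM scaling placed it just above counting error at 1.08 (1.00 to 1.16). Slc25a37 shares 381 exonic bases with Gm31748 and 92 with Gm27223, both on the other strand and with 0 reads in each library. The level of Slc25a37 relative to Slc25a28, mitoferrin 2, was 0.632 in HU plus gold nanocages, 0.621 in HU and 0.587 in control by the deposited sizes. With the M21 size of Slc25a28, 3749 in place of 1514 bases, it was 1.56, 1.54 and 1.45, so the order of both genes depends on the size used. By the length of the principal transcripts the ratio was 0.924, 0.908 and 0.858 in the same libraries.

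Hmox1, the inducible heme oxygenase, was the gene of the 10 with the largest difference between libraries in all 3 contrasts, Slc40a1 with its few reads left aside. It had 127 FPKM in HU plus gold nanocages, 96.8 in HU and 65.0 in control, from 5105, 4196 and 2107 reads. It thus ranked 416th, 604th and 954th among all genes. HU was 1.49-fold higher than control (1.41 to 1.57), rank 523 of 10842 genes from the highest ratio. HU plus gold nanocages was 1.31-fold higher than HU (1.26 to 1.36), rank 299 of 10886, and 1.95-fold higher than control (1.85 to 2.05), rank 232 of 10849.

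The constitutive heme oxygenase Hmox2 had 28.1, 28.7 and 30.2 FPKM in HU plus gold nanocages, HU and control. The level of Hmox1 relative to Hmox2, per length, was 4.51 in HU plus gold nanocages (4.23 to 4.81), 3.38 in HU (3.17 to 3.60) and 2.15 in control (2.00 to 2.32). These intervals do not overlap. With the M21 size of Hmox1 the ratio was 5.56, 4.17 and 2.66 in the same order. In mm10 Hmox1 spans positions 75093621 to 75100589 of chromosome 8, with no other annotated gene there.

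**Figure D2:**
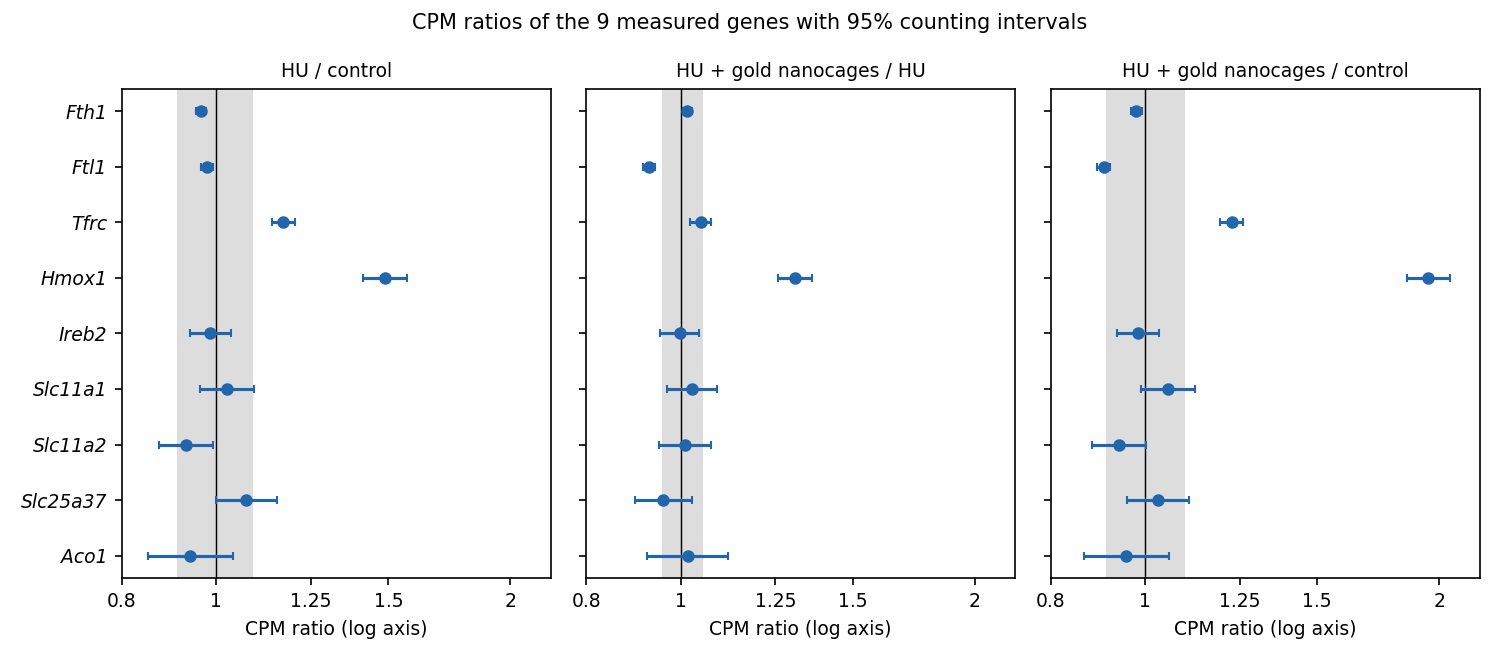
CPM ratios (log axis) of the 9 genes with a mean of at least 1 FPKM, for HU against control, HU plus gold nanocages against HU and HU plus gold nanocages against control, with bars for 95% counting intervals and a grey band from the 25th to the 75th percentile of all genes. Hmox1 lies at 1.49, 1.31 and 1.95, outside the band in each panel; Tfrc lies above it at 1.17 and 1.23 against control, and Ftl1 just below it at 0.927 and 0.907 in both nanocage panels.

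Of the 9 measured genes, Hmox1 and Tfrc were above counting error in HU against control, and Fth1, Ftl1 and Slc11a2 were below it. Among all 10842 genes with a mean of at least 1 FPKM, 18.6% were above and 20.1% below. In HU plus gold nanocages against HU, Hmox1, Tfrc and Fth1 were above and Ftl1 was below, beside 8.32% and 7.8% of all genes. Against control, 2 were above and 2 below with nanocages, beside 19.5% and 20.1%. These contrasts share libraries, and 4 of the called genes are the most abundant of the 10, for which counting error is small.

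By size, Hmox1 alone of the 9 was at least 25% higher in each contrast, and none was at least 20% lower, the same fold downwards. Among all genes 10.3% were at least 25% higher in HU against control, 3.87% with nanocages against HU and 10.7% with nanocages against control. The shares at least 20% lower were 8.96%, 3.41% and 8.76%. The median log2 ratio of the 9 genes was -0.02, 0.02 and -0.03 in these contrasts, and that of all genes was -0.01, 0.00 and 0.00. The other 8 genes lay between 0.930 and 1.17 in HU against control and between 0.927 and 1.05 with nanocages against HU.

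**Figure D3:**
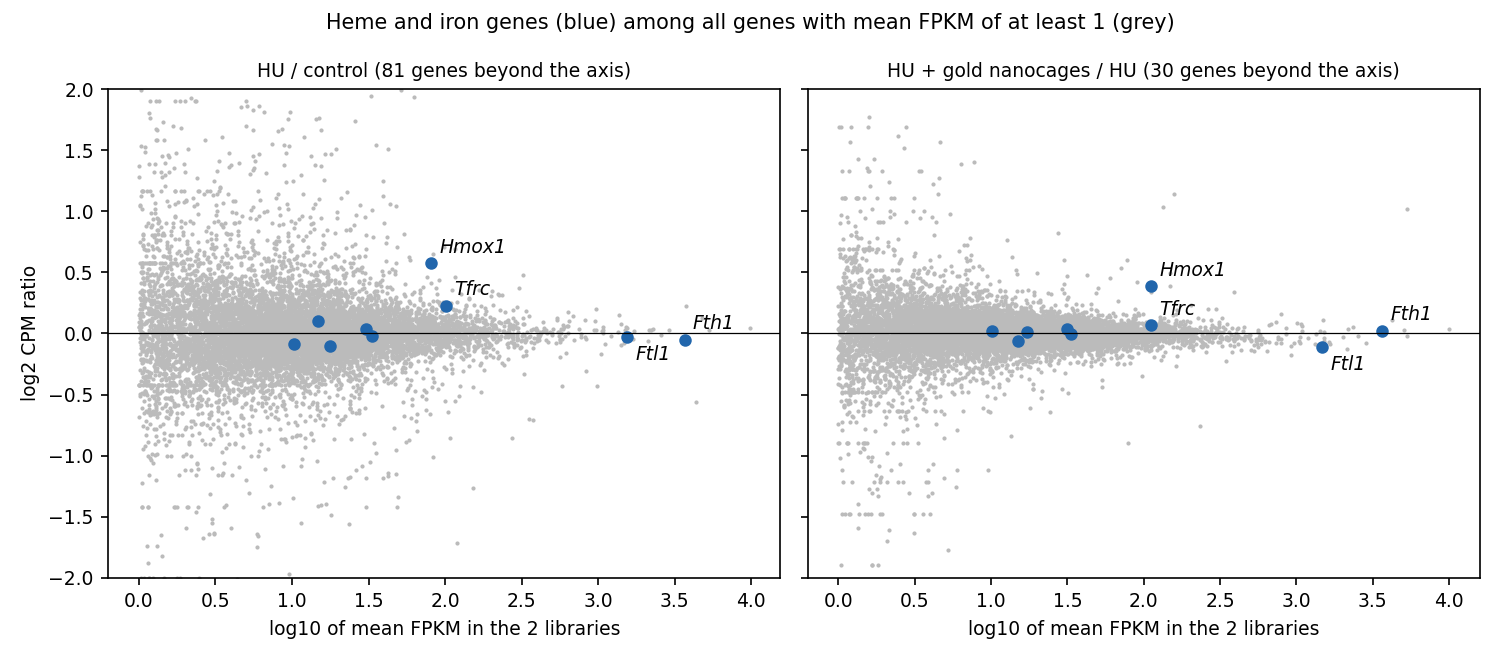
Log2 CPM ratio against log10 of the mean FPKM for all genes with a mean of at least 1 FPKM (grey) and the 9 heme and iron genes (blue), with HU against control on the left and nanocages against HU on the right. Hmox1 stands at 0.57 and 0.39, ranks 523 of 10842 and 299 of 10886 genes from the highest ratio, and the ferritin genes at the right lie close to 0.

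The wider pathways were described from 8 lists, of which 71 of 76 symbols were found. A symbol that was not found, such as Flvcr1, may stand in the data under another name. List counts below include the 10 genes unless stated. Outside the 10 genes, 47 measured genes had 17 above and 4 below counting error in HU against control, beside the 18.6% and 20.1% of all genes given above. By size, 4 of the 47 were at least 25% higher and 0 at least 20% lower in HU, beside 10.3% and 8.96% of all genes, and those 4 were Lrp1, Slc39a14, Alad and Abcb6. With nanocages against HU there were 4 above and 3 below among 47, beside 8.32% and 7.8%, and none was past the 25% or 20% bound, beside 3.87% and 3.41%. Their median log2 ratios were 0.06 and -0.01.

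In iron uptake, 3 of 7 measured genes, Tfrc among them, were above counting error in HU against control and Slc11a2 was below it, beside 18.6% and 20.1% of all genes. Lrp1, a receptor that takes up heme bound to hemopexin among other ligands, had 60.1, 62.5 and 47.2 FPKM in HU plus gold nanocages, HU and control, and was 1.32-fold higher in HU than in control (1.30 to 1.35). Slc39a14, a metal carrier for zinc and iron, was 1.31-fold higher in HU (1.22 to 1.41), and the ferric reductase Steap3 was within counting error (1.14-fold, 0.982 to 1.32). With nanocages Lrp1 was 1.04-fold lower than in HU (1.02 to 1.06).

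Among storage genes Pcbp1, an iron chaperone that loads ferritin, was 1.15-fold higher in HU than in control (1.11 to 1.18). Its relative Pcbp2 was within counting error (1.02-fold, 0.987 to 1.05), and so was Ncoa4, the receptor that carries ferritin to lysosomes (1.09-fold). With nanocages Pcbp1 was 1.03-fold higher than in HU (1.00 to 1.06). Of the genes that control IRP2, Fbxl5, the iron-sensing ligase subunit, was 1.18-fold lower in HU than in control (1.09 to 1.29), and Cul1, its scaffold, was 1.09-fold higher (1.03 to 1.15). Skp1a, the adaptor, was within counting error. With nanocages none of the 5 measured genes of this list passed counting error against HU, beside 8.32% above and 7.8% below among all genes.

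In heme synthesis 3 of 9 measured genes lay above counting error in HU against control and none lay below it, beside 18.6% and 20.1% of all genes. Their median log2 ratio was -0.03. Alad, the second enzyme of the route, had 36.0, 36.5 and 27.4 FPKM in HU plus gold nanocages, HU and control, and was 1.33-fold higher in HU than in control (1.22 to 1.46). Alas1, which catalyses the first and limiting step, was 1.13-fold higher, above counting error, and Cpox 1.12-fold higher (1.04 to 1.22). With nanocages Urod was 1.15-fold lower than in HU (1.01 to 1.32), and Ppox was within counting error. Alas2, the erythroid enzyme whose 5′ UTR also holds the hairpin letters, had 3, 10 and 2 reads.

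Of 6 measured genes of heme breakdown and transport, 4 including Hmox1 were above counting error in HU against control and none below, beside 18.6% and 20.1% of all genes. Slc48a1, which moves heme out of lysosomes, was 1.18-fold higher in HU than in control (1.07 to 1.31). Blvrb, a biliverdin reductase, was 1.16-fold higher (1.00 to 1.34). Por, which passes electrons to heme oxygenase, was 1.08-fold higher (1.04 to 1.12). With nanocages against HU, Hmox1 alone of the 6 passed counting error, upwards, beside 8.32% above and 7.8% below among all genes.

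Regulators of the heme and redox response were also examined, most of which act on Hmox1 transcription. Nfe2l2, which encodes the activator NRF2, had 40.3, 38.8 and 33.4 FPKM in HU plus gold nanocages, HU and control, and was 1.16-fold higher in HU than in control (1.09 to 1.23). Bach1, the heme-sensing repressor, had 6.48, 5.38 and 6.10 FPKM in the same order, and the library with HU alone was the lowest. It was 1.13-fold lower in HU than in control (1.01 to 1.27) and 1.20-fold higher with nanocages than in HU (1.08 to 1.34). Mafk, a partner of both, was 1.13-fold higher in HU (1.04 to 1.23). Maff, another partner, was within counting error with nanocages against HU (1.23-fold, 0.985 to 1.53). Of 7 measured regulators, 4 were above and 2 below in HU against control, beside 18.6% and 20.1% of all genes. The 2 below were Bach1 and Eif2ak1, a heme-regulated kinase that acts on translation and was named after its value was seen (0.885-fold, 0.817 to 0.960). With nanocages against HU, Bach1 alone was above and none was below, beside 8.32% and 7.8% of all genes.

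Of 17 measured genes of mitochondrial iron and iron-sulfur clusters, 3 were above and 1 below counting error in HU against control, beside 18.6% and 20.1% of all genes. Abcb6, a porphyrin transporter, had 1.96, 2.35 and 1.72 FPKM in HU plus gold nanocages, HU and control and was 1.37-fold higher in HU (1.11 to 1.70). Fdxr, which reduces ferredoxin and is a known p53 target, was 1.18-fold higher (1.01 to 1.38). Hscb, a cochaperone of cluster transfer, was within counting error (0.861-fold, 0.706 to 1.05). With nanocages against HU, 2 of the 17 were above and 1 below, beside 8.32% and 7.8% of all genes.

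**Figure D4:**
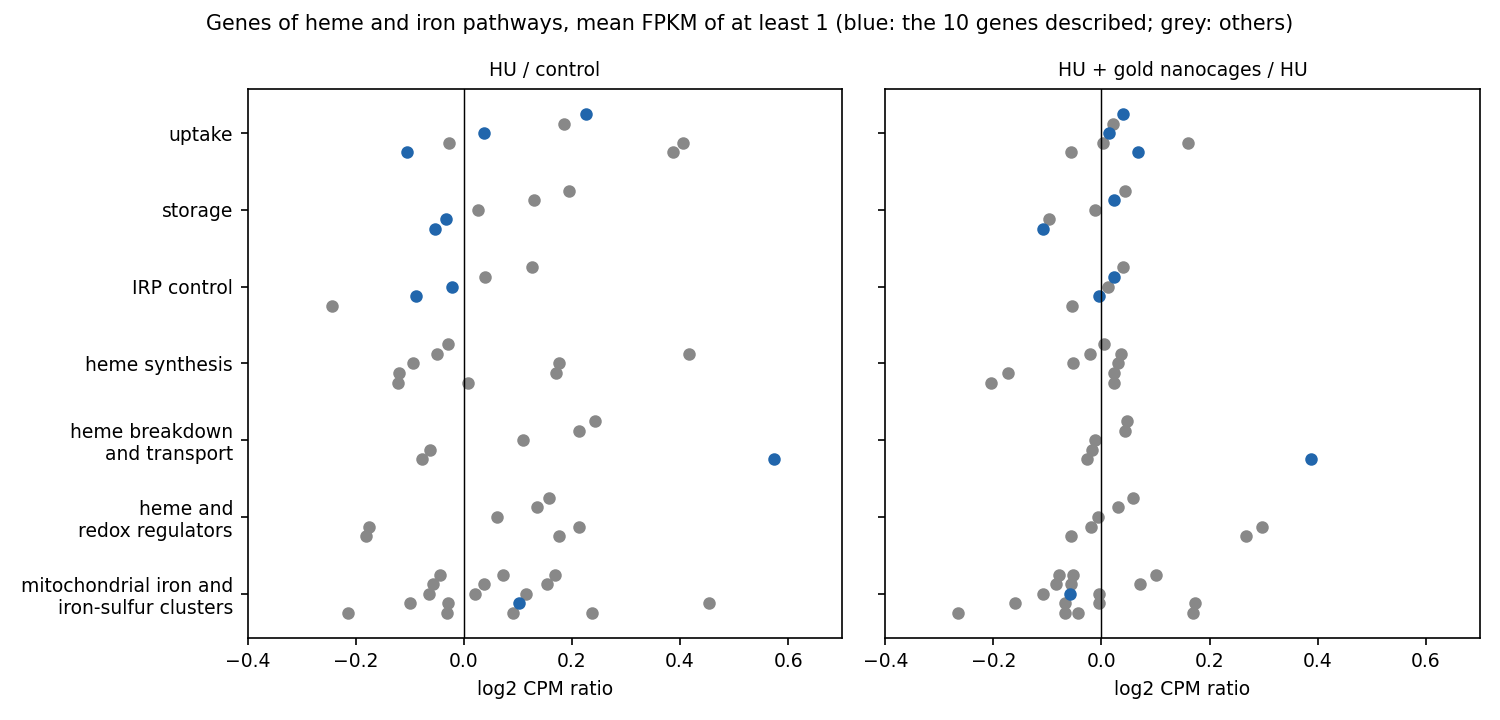
Log2 CPM ratios of measured pathway genes in 7 lists (rows), for HU against control and HU plus gold nanocages against HU, with the genes described first in blue and the others in grey; vertical offsets within a row carry no value. The genes spread wider in HU against control, and Hmox1 is the farthest right in both panels at 0.57 and 0.39.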

How the data were processed

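RNA of 3 RAW264.7 cultures was sequenced in 1 library each. The submitters' processing notes name HTSeq 0.6.1, HISAT2 2.0.1, DESeq, cutadapt, SAMtools 0.1.18 and bcl2fastq 2.17.1.14, and the build mm10; the role of each, the annotation and the strand setting were not given in the sources used here. In one table the authors deposited whole-number read counts per Ensembl gene, not normalized. The deposited FPKM equal the count divided by exonic size and summed count within 0.006 FPKM for 100% of genes. The exonic size, an other kind of value, is a length in bases per the file headers; it matches GENCODE M21 for 7 of the 10 genes and differs for Fth1 (866 against 3469), Hmox1 (2161 against 1751) and Ireb2 (5808 against 9479), and for Slc25a28 (1514 against 3749).

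Here, CPM used the summed counts, and ratios have exact Clopper-Pearson 95% intervals. These cover counting error only, since each condition has 1 library. Reads carry no molecular identifiers, so copies of the same molecule may be counted as separate ones. A count of 0 allows up to 3 counts, or 0.161, 0.150 and 0.200 CPM in HU plus gold nanocages, HU and control. No p-value was computed, as no condition was repeated. The interval code was tested on simulated data. Genes, lists, the bounds of 25% higher and 20% lower and the search were chosen with earlier results of these data known. Named pathway genes were the 3 per list that differed most, on the log2 scale, in HU against control and the 2 that did with nanocages against HU, at a mean of at least 1 FPKM; Hfe, repeats and 1 further gene are not reported here. Export genes below that mean, Eif2ak1, Hmox2, Slc25a28, Alas2 and near copies of the ferritin genes were named outside this rule after their values were seen. Alternatives were TMM factors (edgeR 4.0.16), median-of-ratios factors, sums without mitochondrial, ribosomal and small RNA, pseudocounts on log2 FPKM ratios, added near copies, a 99% interval, other folds, other filters and, chosen after seeing the data, other gene sizes. The analysis used Python 3.11.15 and scipy 1.17.1.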

Additional observations from a re-analysis of the deposited data

How the results depend on the processing

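The log2 ratios of the 10 genes stayed inside their 95% counting intervals under all 90 scaling, 90 pseudocount and 6 near-copy alternatives run. Some of these could hardly move a ratio. TMM factors were 1.00, 0.998 and 1.00 in HU plus gold nanocages, HU and control, and no near copy had more than 6 reads. The Slc40a1 intervals are wide. With nanocages against HU a pseudocount of 5 FPKM moved its log2 ratio from 1.04 to 0.02, still inside -0.08 to 2.24. For Hmox1 the log2 ratios lay between 0.54 and 0.58 in HU against control, between 0.37 and 0.39 with nanocages against HU and between 0.91 and 0.97 with nanocages against control. With a bound of 1.5-fold in place of 25%, 0 of the 9 genes were higher in HU against control and 0 with nanocages against HU. With nanocages against control 1 was higher, Hmox1 at 1.95-fold. With a fold of 2 the number was 0 in all 3 contrasts. The shares of all genes at these bounds are not given here, so the counts have no background beside them. Calls against counting error changed for Slc25a37 and Slc11a2 only. Slc25a37 was above in HU under TMM and under sums without mitochondrial, ribosomal and small RNA (1.07-fold, 1.00 to 1.16). Slc11a2 lost its call in HU with a 99% interval (0.930-fold, 0.856 to 1.01) and was below control with nanocages under median-of-ratios factors (0.937-fold, 0.878 to 0.999). In the main setting each of these intervals had a bound close to 1. The lower bound of Slc25a37 in HU against control was 0.999. The upper bound of Slc11a2 was 0.991 in HU against control and 1.002 with nanocages against control. The cause of the differences between libraries was not tested. The share of all genes at least 25% higher with nanocages against HU was 3.87% at a mean of at least 1 FPKM, 1.19% at 5 FPKM and 18.5% with no filter beyond 1 read. With exonic sizes of GENCODE M21, chosen after seeing the data, level ratios crossed 1 for Fth1 to Ftl1 (0.647, 0.591 and 0.599 in HU plus gold nanocages, HU and control) and for Slc25a37 to Slc25a28 (1.56, 1.54 and 1.45), since the sizes of Fth1 and Slc25a28 differ; ratios between libraries do not use the size. No paired analysis was possible because each condition has 1 library, and for the same reason none could be left out.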

Other observations

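Beyond the genes described, hairpin letters chosen by sequence alone picked out 18 further measured genes with a 5′ UTR match and 79 with a 3′ UTR match in HU against control. Of the 5′ UTR genes 4 were above and 0 below counting error, and of the 3′ UTR genes 18 were above and 16 below, beside 18.6% and 20.1% of all genes. With nanocages against HU these counts were 2 and 2 of 18, and 6 and 2 of 79, beside 8.32% and 7.8%.

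The genes nearest to Hmox1 over both the HU against control and the nanocages against HU log2 ratios, among 7736 genes with a mean of at least 5 FPKM, were Gm25894, Fam212a and Slc7a11. Gm25894, annotated as a small nucleolar RNA, rests on 48, 39 and 21 reads in HU plus gold nanocages, HU and control. Fam212a had 224, 195 and 104 reads and Slc7a11, the cystine importer, 7.37, 6.16 and 4.49 FPKM in the same order. Their distances from Hmox1 were between 0.102 and 0.175 on the log2 scale, a likeness over 3 libraries that says nothing of shared control.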
